A study of Mus musculus with 6 samples.

Results

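RNA counted outside the exons of genes in the GENCODE M21 annotation was compared between tumours that grew from control cells and from Uhrf1 knockout cells. A row of the deposited tables is a set of intervals over which read pairs were counted. The rows described here lie on autosomes, overlap no exon of any gene in the GENCODE M21 annotation of the GRCm38 build, and held at least 30 counts summed over the 6 tumours. They are 1505 of the 53599 rows of the tables. A row was called intronic where at least 1 of its intervals overlaps the body of a gene (1224 rows) and intergenic where none does (281 rows). Both classes follow GENCODE M21 alone, and genes in RefSeq were not excluded. Of the 281 intergenic rows, 103 overlap the span of a RefSeq gene. RefSeq genes that GENCODE M21 lacks lie under 230 of the 1505 rows, 165 intronic and 65 intergenic. The rule used position and the summed count and not the groups. At its edge, 45 rows had 30 counts and were kept, and 47 rows had 29 and were not. The names in the tables belong to intervals of another build, so each row is given below by its position and by the name it is listed under, and that name does not say what lies there.

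The tumours came from LG1233-OVA, a murine lung cancer cell line. The control group (sgNT, genotype WT) had 3 tumours, and the other group (sgUhrf1, genotype Uhrf1 Knockout) had 3, from stable lines made with CRISPR/Cas9. All were grown under the skin of female C57BL/6 mice from 1000000 injected cells and taken on day 27 as whole tissue. The labels do not say whether a line was 1 clone or a pool, and host cells inside the tumours kept their own Uhrf1. The labels call the 3 tumours of a group biological replicates and name no shared litter, batch or day.

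UHRF1 is known for binding hemimethylated CpG sites behind the replication fork and bringing the maintenance DNA methyltransferase DNMT1 to them. DNA methylation is known to keep many promoters outside the standard gene set silent, among them promoters within repeats. Reads between exons can also come from unspliced RNA, from transcripts that run past a gene's end, or from exons that an annotation lacks, and counting without strand cannot tell these apart. The libraries were made from poly-A selected RNA.

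Some of these rows reach into the promoter windows of genes in RefSeq. Of the 1505 rows, 59 overlap a window, from 250 bases before to 50 bases after a gene's start, by at least 1 base, and 65 windows were matched. The start itself lay under the row for 23 of the 65. The windows held a median of 9 CG dinucleotides, against 7 over all 31365 autosomal RefSeq windows. The hexamer TATAAA, searched on both strands, was in 6 of the 65 (9.23%) and in 13.6% of all windows. The hexamer GGGCGG, also on both strands, was in 18 (27.7%) and in 36% of all. A match is a run of letters, not a shown binding site. Printed here are 4 that overlap rows called higher in sgUhrf1 tumours and 1 that overlaps a well counted row that was not called, from RefSeq on GRCm38.p6, 5′ to 3′ on the gene's strand, to show how much these windows differ in CG content. Capitals mark each CG, the dinucleotide that carries the methylation UHRF1 is known to maintain.
Pgap1, chr1:54557635-54557934, minus strand: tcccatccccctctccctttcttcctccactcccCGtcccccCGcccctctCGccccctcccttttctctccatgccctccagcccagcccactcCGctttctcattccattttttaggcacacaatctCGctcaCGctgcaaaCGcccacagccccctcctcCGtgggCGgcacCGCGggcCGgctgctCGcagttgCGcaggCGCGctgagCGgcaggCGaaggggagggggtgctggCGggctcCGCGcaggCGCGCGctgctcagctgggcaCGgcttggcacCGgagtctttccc
Gm29709, chr12:85407854-85408153, plus strand: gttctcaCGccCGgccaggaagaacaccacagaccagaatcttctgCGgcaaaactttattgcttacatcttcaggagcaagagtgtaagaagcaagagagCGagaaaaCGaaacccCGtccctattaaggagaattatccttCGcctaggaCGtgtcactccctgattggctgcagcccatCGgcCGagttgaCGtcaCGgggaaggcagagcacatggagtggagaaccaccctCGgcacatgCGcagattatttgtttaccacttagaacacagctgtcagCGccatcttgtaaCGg
Gm31560, chr17:34553326-34553625, plus strand: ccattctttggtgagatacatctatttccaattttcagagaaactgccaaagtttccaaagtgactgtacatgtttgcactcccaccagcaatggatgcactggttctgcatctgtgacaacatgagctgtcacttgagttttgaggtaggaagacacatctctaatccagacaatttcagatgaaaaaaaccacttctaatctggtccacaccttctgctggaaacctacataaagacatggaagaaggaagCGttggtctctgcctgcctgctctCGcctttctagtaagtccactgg
Gm40833, chr13:23434623-23434922, minus strand: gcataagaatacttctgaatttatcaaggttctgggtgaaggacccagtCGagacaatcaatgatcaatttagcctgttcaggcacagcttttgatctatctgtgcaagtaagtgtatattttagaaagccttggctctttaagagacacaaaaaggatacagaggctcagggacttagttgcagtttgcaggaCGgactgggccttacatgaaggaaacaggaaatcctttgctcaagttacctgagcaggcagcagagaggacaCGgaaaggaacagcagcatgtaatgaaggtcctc
Gm38894, chr6:124797044-124797343, minus strand: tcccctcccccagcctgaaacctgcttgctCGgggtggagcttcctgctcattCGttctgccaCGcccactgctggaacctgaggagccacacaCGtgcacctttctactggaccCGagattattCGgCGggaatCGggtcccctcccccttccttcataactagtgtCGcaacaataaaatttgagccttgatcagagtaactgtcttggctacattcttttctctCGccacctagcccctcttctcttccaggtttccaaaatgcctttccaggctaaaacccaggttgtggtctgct

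The window of Pgap1, a gene for a GPI-anchor remodelling enzyme, has 26 CG dinucleotides and a GC content of 69.3%, and 82.6% of all windows have fewer CG. The row beside it (listed as Gm36955, chr1:54557769-54559429) held 2, 0 and 0 counts in sgNT tumours and 43, 47 and 23 in sgUhrf1 tumours, with no overlap between groups. The window of Gm29709 has 16 CG, and its row (listed as Gm47817, chr12:85407267-85410419) held 2, 0 and 0 counts against 21, 39 and 26. At the CG-poor end, the window of Gm31560 has 2 CG at a GC content of 44%, and its row (listed as H2-Eb2, partly inside the butyrophilin-like pseudogene Btnl7-ps) held 0 counts in every sgNT tumour and 38, 45 and 16 in sgUhrf1 tumours. The window of Gm40833 has 3 CG, and its row (listed as Vmn1r223) held 6, 5 and 3 counts against 14, 28 and 34. Rows called higher thus touched both CG-rich and CG-poor windows, but of the 4 only the rows over Gm29709 and Gm40833 held the whole window with the start. The row by Pgap1 lay upstream of the start and overlapped 166 bases of the window, and the row by Gm31560 overlapped 139. The CG counts are those of whole windows, and CG in the overlapped part alone was not counted. The ratio of scaled counts was 64.1 for the Pgap1 row (exact 95% binomial interval 17.3 to 535) and 48.8 for the Gm29709 row (13.1 to 409). The Gm31560 row met the count minimum through sgUhrf1 tumours alone, and the Pgap1 and Gm29709 rows nearly so. On its sgNT counts alone the Gm40833 row would not have met it. All 4 are therefore given as a description, without a p. The window of Gm38894 has 10 CG, and its row (listed as Usp5) held 316, 164 and 100 counts against 280, 317 and 133. Those groups overlapped. The edgeR quasi-likelihood test with Benjamini-Hochberg adjustment gave a log2 fold change of 0.49 ± 0.38 (SE) and an adjusted p of 0.342. Over all 7 windows touched by rows called higher, CG counts ran from 2 to 26 with a median of 7.

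The 6 tables held 5462555 to 6375069 counts each, and 1364 to 1491 of the 1505 rows had at least 1 count in a tumour. The row over Uhrf1 exons held 841, 917 and 554 counts in sgNT tumours and 685, 460 and 409 in sgUhrf1 tumours. These ranges overlap (log2 fold change −0.37 ± 0.23, SE, edgeR adjusted p = 0.227), and RNA of a gene cut by CRISPR/Cas9 need not be lost, so the row does not check the labels. Of the marker lists of cell types, some differed between groups or tumours and others had few or no calls. Of the T cell list, 4 of 4 tested genes were higher in sgUhrf1 tumours, with a summed level of 7.26 to 23.9 CPM in sgNT and 81.4 to 213.5 in sgUhrf1 tumours, and none of its 5 measured genes was at 0 in all tumours. The general leukocyte list had 0 of 4 genes higher (98.3 to 141.8 against 60 to 118.3 CPM). Macrophage (0 of 2) and endothelium (0 of 3) genes had no calls, and 0 of 4 fibroblast genes were higher and 1 lower. Of the lung epithelium list, 3 of 4 tested genes were higher (157 to 439 against 1693 to 2882 CPM). Its highest levels were those of Cdh1 (mean 180 against 1043 CPM) and Krt7 (98.6 against 1153), and Sftpb was not called. The injected cells are themselves a lung cancer line, so this list need not mark host cells. Skeletal muscle markers summed to 458.5 CPM in sgNT replicate 2 and 378.7 in sgUhrf1 replicate 1, and to 2.66 to 22.9 in the other tumours. In whole tissue, fewer cells of a type and less RNA per cell cannot be told apart. The part of these cell types in the results below was not tested, except that counts without both muscle-rich tumours are given.

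More of these rows were higher in sgUhrf1 tumours than lower. The filter on low counts left 756 of the 1505 rows for the edgeR test, 621 intronic and 135 intergenic. At an adjusted p of 0.05, 136 intronic rows were higher and 12 lower, and 45 intergenic rows were higher and 6 lower. That is 23.9% of the tested rows higher and 2.38% lower. Over all 10503 rows tested, 20.2% were higher and 19.7% lower, so the share that was higher lay near the background and the share that was lower lay well under it. Rows over exons with a like depth of 30 to 300 counts had 15.1% higher and 14.8% lower (2919 rows). Of the 653 tested rows outside exons with that depth, 144 were higher (22.1%) and 12 lower (1.84%). The median log2 fold change was 0.46 for intronic and 0.64 for intergenic rows, against −0.02 for tested rows over exons.

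The filter favours rows that are high in 1 group, so every row was also fitted without it. Then 183 intronic rows were higher and 19 lower of 1224, and 80 intergenic rows were higher and 11 lower of 281. Together that is 17.5% higher and 1.99% lower, beside 18.1% higher and 20.5% lower of the 10875 exon rows with at least 30 counts in the same fit. This fit gave the row listed as Gm10612, with nearly all counts in 1 tumour, an adjusted p of 1.257e-125, so that fit can call a row on 1 tumour. The size of the imbalance depends on the scaling. When the tumours were scaled on these rows alone, the median of all rows moved from 0.02 to −0.58, and 95 intronic rows were higher and 35 lower, with 36 and 18 for intergenic rows. That is 17.3% of the tested rows higher and 7.01% lower, beside 10.1% higher and 34.0% lower of all rows (1058 and 3570, against 2121 and 2066), so higher still outnumbered lower in both classes. Without both muscle-rich tumours, 62 intronic rows were higher and 10 lower, and 28 intergenic rows were higher and 6 lower. That is 10.7% higher and 1.9% lower of the 840 such rows tested, beside 10.2% and 7.21% of all 10689 rows tested with those 4 tumours.

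**Figure D1:**
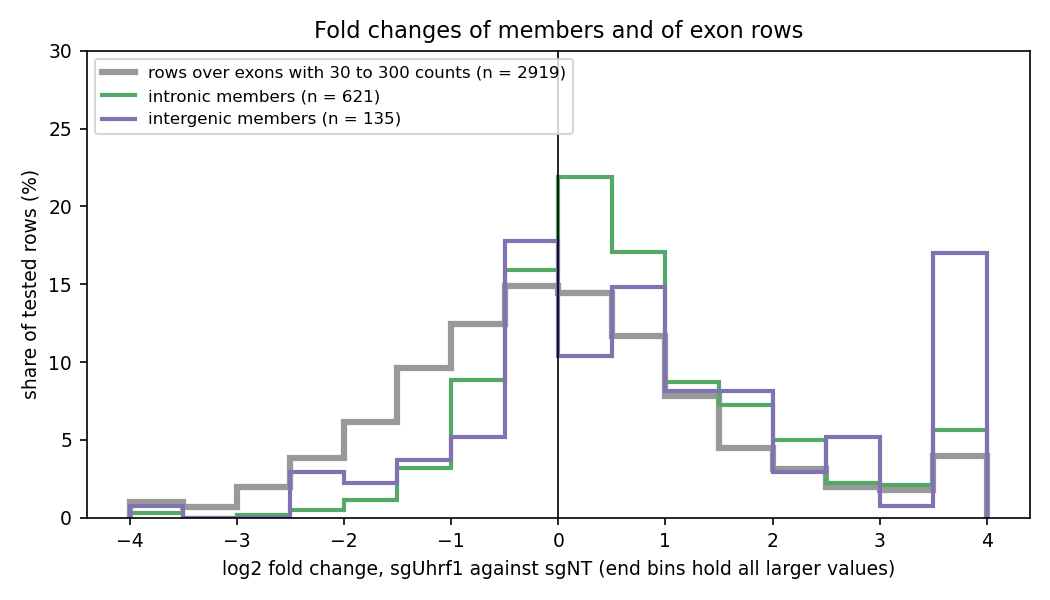
Log2 fold changes (x axis, sgUhrf1 against sgNT, end bins holding all larger values) as shares of tested rows (y axis, %) for intronic rows, intergenic rows and exon rows with 30 to 300 counts. Both sets outside exons sit to the right of the exon rows, with medians of 0.46 and 0.64 against −0.02, and the intergenic set has a heavy right end.

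Calls were large where they were made. The 136 intronic rows called higher had a median log2 fold change of 2.35, and 131 of them had no overlap between groups. The 45 intergenic rows called higher had a median of 3.58, and all 45 had no overlap. With 3 tumours per group, passing the threshold favours rows without overlap, so these counts follow from the call. The same share over all called rows was not computed. The 12 intronic rows called lower had a median of −1.96, and the 6 intergenic ones −2.16. Some rows had 0 counts in 1 whole group, and reached the 30 counts only through the other, so they are given as a description. In all, 40 rows had 0 counts in every sgNT tumour, 17 intronic and 23 intergenic, and 37 of these had counts in every sgUhrf1 tumour. Only 3 rows, all intergenic, had 0 counts in every sgUhrf1 tumour, and 2 of these had counts in every sgNT tumour. These are 2.66% and 0.199% of the 1505 rows, and of 4061 exon rows with 30 to 300 counts 1.38% and 0.394% were at 0 in every sgNT or every sgUhrf1 tumour.

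The summed share of counts depended on a few rows that hold much of it. The 1505 rows held 321135 counts, and their median total was 59. Of all counts of a tumour, intronic rows took 0.649%, 0.342% and 0.339% in sgNT replicates 1 to 3 and 0.826%, 0.65% and 0.741% in sgUhrf1 replicates 1 to 3. The groups did not overlap, but sgNT replicate 1 lay next to sgUhrf1 replicate 2. With counts on autosomes as the denominator they overlapped, at 0.721% and 0.713% for those tumours. Intergenic rows took 0.415%, 0.457% and 0.426% in sgNT and 0.243%, 0.24% and 0.165% in sgUhrf1 tumours, the opposite order and again without overlap. Counting error was at most 0.00862 percentage points on any of these shares (to either side, from 95% Wilson intervals, which cover counting error only). No p is given for these sums over a chosen set of rows.

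A single row set the direction of the intergenic share. Listed as Gm13669, it held 59.3% of all intergenic counts. Without it the intergenic share was 0.137%, 0.0992% and 0.0931% in sgNT and 0.179%, 0.164% and 0.124% in sgUhrf1 tumours, now higher on average in sgUhrf1, with overlap. Without the 10 most counted rows it was 0.0819%, 0.0548% and 0.0555% against 0.122%, 0.105% and 0.0882%, without overlap. The intronic share without its 10 most counted rows was 0.36%, 0.22% and 0.249% against 0.424%, 0.427% and 0.303%, with overlap. Both classes together took 1.06%, 0.799% and 0.764% in sgNT and 1.07%, 0.891% and 0.906% in sgUhrf1 tumours, which overlapped.

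**Figure D2:**
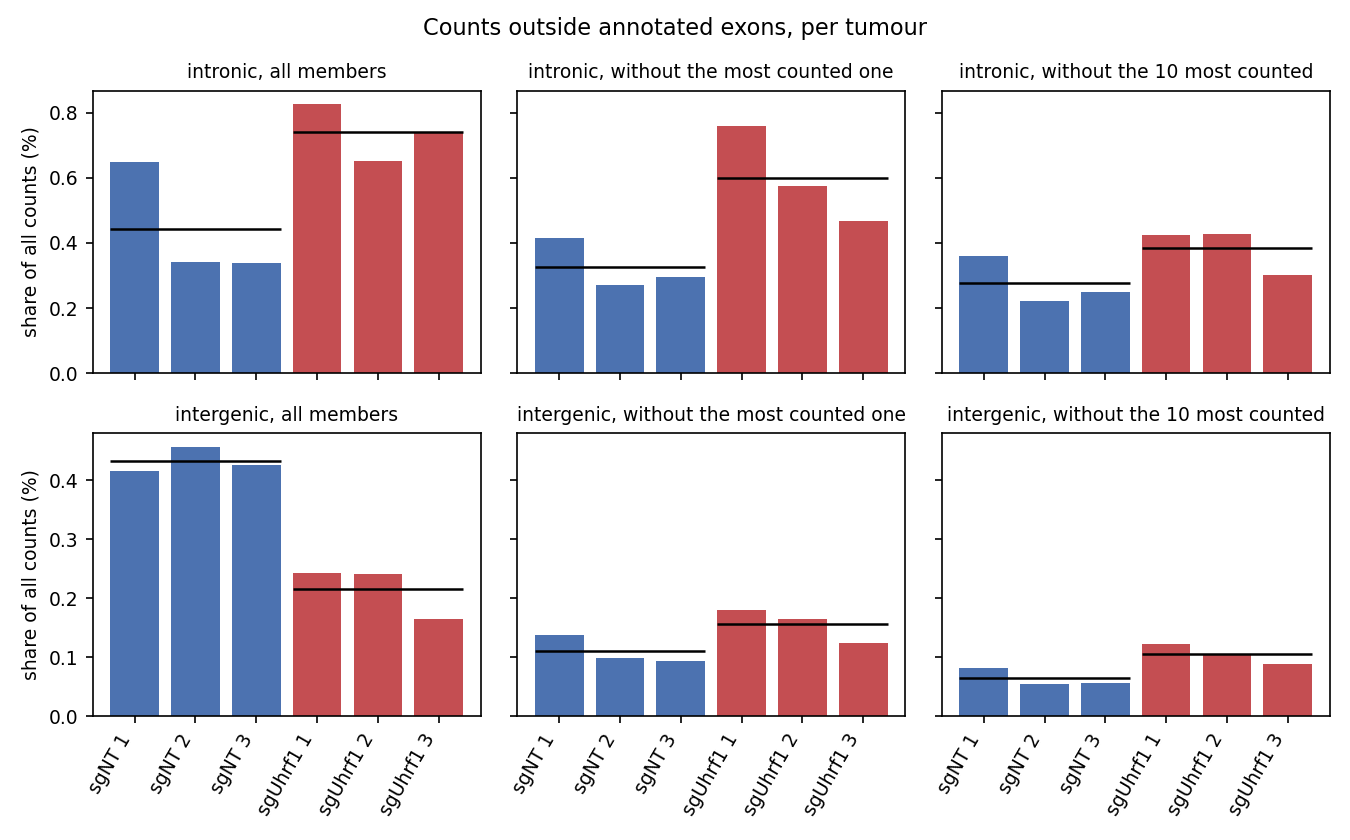
Share of all counts (y axis, %) in intronic rows (top) and intergenic rows (bottom) of each of the 6 tumours, with all rows, without the most counted row and without the 10 most counted. Bars are single tumours and lines are group means. The intergenic mean falls from 0.433% to 0.216% with all rows and goes the other way, from 0.11% to 0.156%, without the most counted row.

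The most counted intronic row was not called, and its spread leaves room for a change of either sign. It is listed as Obi1 and lies at chr14:104714972-104760081, inside the long non-coding RNA gene D130009I18Rik and 8992 bp from its nearest exon. It held 13515, 4440 and 2442 counts in sgNT and 3722, 4723 and 15453 in sgUhrf1 tumours. One tumour of each group was high, and the others lay close together. The log2 fold change was 0.57 ± 0.72 (SE, edgeR adjusted p = 0.556), and it turned to −0.61 without sgUhrf1 replicate 3. Of 5744 rows named by the exons under them, the one most like it over the 6 tumours lay over the pseudogene Gm13338 (Pearson r 0.996 of log2 CPM, no test), with 2019, 606 and 331 counts against 542, 688 and 1862. That likeness was looked up after the values were seen.

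Of the other abundant intronic rows, 2 were higher by moderate folds. A 60 bp row inside an intron of Mmp14, a membrane-bound matrix metalloproteinase, is listed as Traj15 (chr14:54441879-54441938). It held 2104, 2553 and 1859 counts in sgNT and 4135, 3631 and 3131 in sgUhrf1 tumours, without overlap. Its log2 fold change was 0.94 ± 0.17 (SE, edgeR adjusted p = 0.00333). A row over 61 bp of Mmp14 exons was at 0.47 ± 0.18 (adjusted p = 0.0618, not called). The call of the row listed as Traj15 was lost with scaling on rows outside exons (0.32, adjusted p = 0.444) and without both muscle-rich tumours (0.93, adjusted p = 0.0513). A row within Clic1, a chloride intracellular channel gene, is listed as Dxo (chr17:35055995-35058209) and held 324, 177 and 219 counts against 564, 708 and 586. All 3 sgUhrf1 tumours lay above all sgNT tumours, with a log2 fold change of 1.55 ± 0.26 (SE, edgeR adjusted p = 0.00194).

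The row with the largest intronic rise went from near nothing to one of the most counted. It is listed as Setd3 and spans chr12:108072690-108145573, partly inside the body of Setd3, the gene of an actin histidine methyltransferase, in 14 intervals of which the nearest lies 4849 bp from an exon. It held 4, 9 and 4 counts in sgNT and 3550, 3674 and 2835 in sgUhrf1 tumours. The 3 tumours of each group were close to each other, and the log2 fold change was 9.37 ± 0.29 (SE). On its sgNT counts alone the row would not have met the count minimum, so it is given as a description, without a p. Next came the row listed as Chmp4c (chr3:10431967-10493916), partly in Snx16, which encodes a sorting nexin of endosomes. It held 0, 1 and 1 counts against 754, 157 and 249, a ratio of 657.6 (exact 95% binomial interval 181.6 to 5437). Every sgUhrf1 tumour was far above every sgNT tumour in both rows.

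The other 4 largest intronic rises had 0 counts in every sgNT tumour, so that their folds are lower bounds against 3 counts over the group. Among them, the row listed as H2-Eb2 (chr17:34544639-34560386), whose counts stand above beside the Gm31560 window, was at least 37.4-fold higher. Partly inside Sgpp2, a sphingosine phosphate phosphatase gene, the row listed as Gm28410 (chr1:78302265-78316743) held 14, 37 and 19 counts in sgUhrf1 tumours and was at least 26.5-fold higher. Inside Cfap74, a gene of motile cilia, the row listed as Gm27200 (chr4:155428140-155428922) held 21, 26 and 16 counts and was at least 23.8-fold higher. All 3 sgUhrf1 tumours carried counts in each. Inside D5Ertd615e and 19587 bp from its nearest exon, the row listed as Gm42519 (chr5:45400994-45404649) held 29, 18 and 10 counts and was at least 21.5-fold higher.

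In 2 abundant rows called higher the tumours of 1 group were unequal. The row listed as Gm10612 (chr8:123424599-123426899) lies inside Def8 and held 30, 9 and 6 counts in sgNT and 7784, 23 and 119 in sgUhrf1 tumours. sgUhrf1 replicate 1 alone held 97.7% of its counts, and sgUhrf1 replicate 2 lay below sgNT replicate 1 in CPM (3.65 against 4.75). Its edgeR log2 fold change of 7.60 ± 2.00 (SE, adjusted p = 0.0153) fell to 2.61 without that tumour (adjusted p = 0.0499) and to 2.32 without both muscle-rich tumours (adjusted p = 0.127), and limma-voom gave 4.65 (adjusted p = 0.309). It also missed the threshold without sgNT replicate 2 (adjusted p = 0.0581). The row listed as Mastl (chr2:23005618-23046036) lies partly in Abi1, a gene of the actin-regulating WAVE complex. It held 60, 116 and 81 counts against 465, 286 and 1760, without overlap and with sgUhrf1 replicate 3 highest (log2 fold change 3.64 ± 0.73, SE, edgeR adjusted p = 0.00474).

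The intronic rows that were lower lay in genes of several kinds. Partly inside Klra4, a receptor gene of natural killer cells, the row listed as Klra11-ps (chr6:130059860-130071639) held 16, 23 and 12 counts in sgNT and 1, 0 and 1 in sgUhrf1 tumours. The sgNT tumours were 22.5 times higher (exact 95% binomial interval 5.92 to 190.7). In the long non-coding RNA gene Gm14005, which RefSeq names Morrbid, the row listed as Gm14006 (chr2:128399174-128400154) held 19, 17 and 12 counts against 0, 1 and 1, a ratio of 21.2 (5.55 to 179.8). In both rows every sgNT tumour was above every sgUhrf1 tumour. In Gm35853, the row listed as Gm49501 (chr15:101378177-101381193) held 75, 63 and 79 counts against 9, 12 and 13 (log2 fold change −2.47 ± 0.40, SE, edgeR adjusted p = 0.00169).

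A further 3 falls lay in or beside host genes of adhesion, transport and growth factor signalling. In Axl, a receptor tyrosine kinase gene, the row listed as Rnf170-ps (chr7:25771498-25772356) held 99, 86 and 100 counts against 35, 15 and 12. Its log2 fold change was −2.03 ± 0.42 (SE, edgeR adjusted p = 0.00555), beside −3.38 ± 0.34 for a row over 104 bp of Axl exons. Partly inside Tenm3, a teneurin adhesion gene, the row listed as Gm45864 (chr8:48226590-48230837) held 44, 47 and 24 counts against 9, 7 and 0. All sgNT tumours lay above all sgUhrf1 tumours (log2 fold change −2.67 ± 0.72, SE, edgeR adjusted p = 0.0177), but the adjusted p was 0.0544 without sgNT replicate 1, 0.0614 without sgNT replicate 2 and 0.064 without both muscle-rich tumours. On its sgUhrf1 counts alone this row would not have met the count minimum. Partly inside Slc16a11, a monocarboxylate transporter gene, the row listed as Alox12e (chr11:70206436-70213454) held 62, 37 and 42 counts against 8, 19 and 3 (−2.10 ± 0.55, adjusted p = 0.015). Its adjusted p was 0.0535 without sgNT replicate 1, 0.051 without sgUhrf1 replicate 1 and 0.0774 without both muscle-rich tumours.

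Of the 50 most counted tested intronic rows, the 2 with fold changes nearest 0 lay in genes of metabolism and cell shape. A row within Dgat1, a triglyceride synthesis gene, held 143, 74 and 121 counts against 122, 147 and 47 (listed as Vps28, chr15:76506287-76510286). A row within Rac1, a small GTPase gene, held 74, 41 and 86 counts against 79, 80 and 25 (listed as Gm42502, chr5:143511415-143512503). The groups overlapped in both, at log2 fold changes of 0.01 ± 0.39 and −0.03 ± 0.45 (SE), and these errors leave room for changes of either sign.

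**Figure D3:**
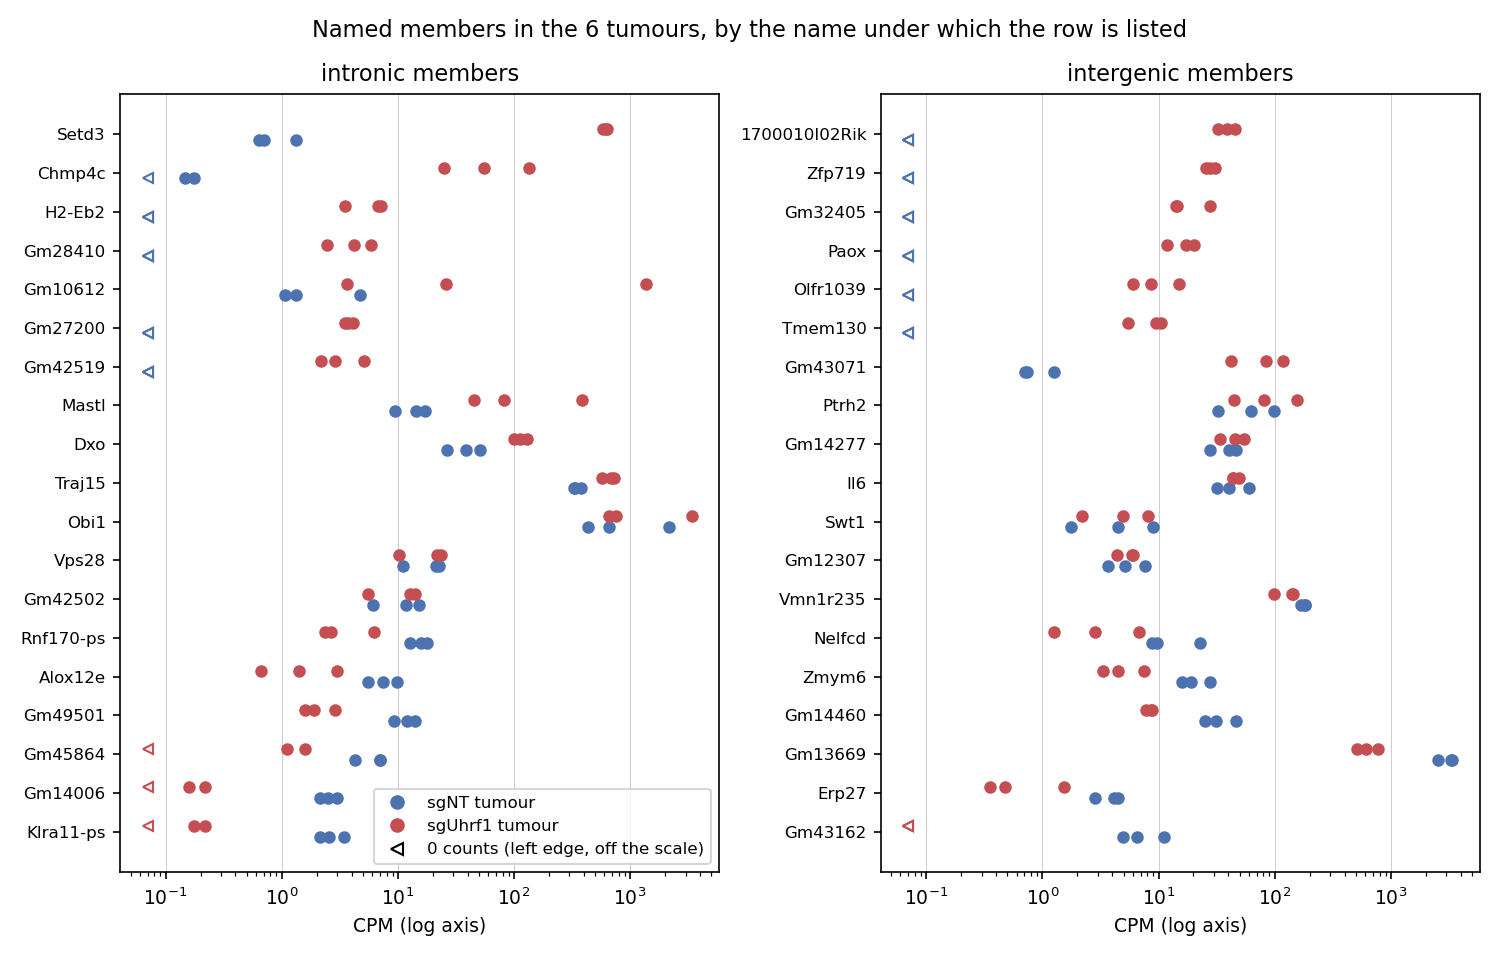
Scaled counts in CPM (x axis, log scale) of the named intronic (left) and intergenic (right) rows in each of the 6 tumours, ordered by log2 fold change, with sgNT below and sgUhrf1 above each row's line. Triangles at the left edge are tumours with 0 counts; the rows at the top right have 0 counts in every sgNT tumour and 31 to 288 counts in sgUhrf1 tumours.

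Intronic rows were set beside the exons of their own gene, which asks whether a row moved with its host. This was possible for 188 tested intronic rows with 1 host, in 169 genes. There another row covers at least 50 bp of exons of that gene and, small RNA genes set aside, of no other gene. The most counted such row stood for the exons. These rows can also reach outside exons and can cover few exon bases, such as 112 bp in Abi1 and 61 bp in Mmp14. The median log2 fold change was 0.41 for the intronic rows and −0.26 for the exons. The intronic row was above its exons in 132 pairs, with a median difference of 0.54. With at least 200 bp of exon the median difference was 0.45, over 122 pairs. Per tumour, the median log2 ratio of intronic to exon counts was −3.09, −4.08 and −3.66 in sgNT and −2.70, −2.86 and −3.24 in sgUhrf1 tumours, so that sgNT replicate 1 lay above sgUhrf1 replicate 3. Without sgNT replicate 1 the median difference was 0.84, over 1.5 times as large. Signs were the same in 105 pairs (55.9%), and across pairs, which are not independent replicates and share libraries, Pearson r was 0.546.

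Of the 38 intronic rows called higher in these pairs, 21 lay in genes whose exons were higher too. Values for 5 of these, picked after they were seen, follow. In Ifi213, an interferon-inducible gene, the row listed as Ifi207 held 0, 0 and 2 counts against 57, 77 and 48, a ratio of 103.2 (exact 95% binomial interval 28.2 to 858.4), with exons at a log2 fold change of 2.90. In H2-DMb1, which encodes a class II peptide-loading chain, the row listed as Pfdn6 held 19, 3 and 23 counts against 158, 48 and 101, without overlap. Its log2 fold change was 2.95 ± 0.69 beside 3.38 ± 0.35 for the exons (SE). In H2-Q4, a class I heavy chain gene, the row listed as Gm23442 held 15, 2 and 5 counts against 131, 76 and 50, and row and exons were at 3.68 ± 0.63 and 4.04 ± 0.43 (SE).

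The other 2 of these hosts are Cdh1 and Meg3. In Cdh1, which encodes E-cadherin, the row listed as Edc4 held 13, 1 and 8 counts against 17, 57 and 42, without overlap, and it was at 2.55 ± 0.75 beside 2.54 ± 0.29 for the exons (SE). In Meg3, an imprinted long non-coding RNA gene, the row listed as Mir493 held 154, 78 and 24 counts against 411, 149 and 157, which overlapped. It was at 1.70 ± 0.59 (SE, edgeR adjusted p = 0.0458) beside 2.67 ± 0.60 for the exons.

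In 6 pairs the intronic row was higher and the exons of the gene lower, and in no pair the reverse. The 6 hosts are Abi1, Smarcc1, which encodes a core subunit of SWI/SNF remodelling complexes, Rab11fip3, an adaptor gene of recycling endosomes, Dip2c, Phldb2 and Atp9b. In Abi1 the row was at 3.64 ± 0.73 and the row over 112 bp of its exons at −1.63 ± 0.23 (SE). In Dip2c, the row listed as Gm48870 held 8, 6 and 9 counts against 21, 12 and 35, at 1.80 ± 0.61, and the exons were at −3.13 ± 0.60. The rows in Smarcc1 (listed as Gm42775; 11, 7 and 8 counts against 24, 26 and 19) and in Rab11fip3 (listed as Antkmt; 24, 17 and 17 against 43, 36 and 42) also did not overlap between groups. In Phldb2 the row listed as Gm15640 went from 6, 7 and 5 to 18, 28 and 24 counts, and in Atp9b the row listed as Gm47273 from 2, 1 and 7 to 11, 13 and 53. In all but Abi1, no tumour held more than 53 counts in the row. In 11 more pairs the row was higher and the exons were not called, and in the 4 pairs with a lower row (hosts Gm14005, Tenm3, Axl and Tgfbi) the exons were lower as well. Of the 146 pairs whose row was not called, 23 had higher and 40 had lower exons.

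**Figure D4:**
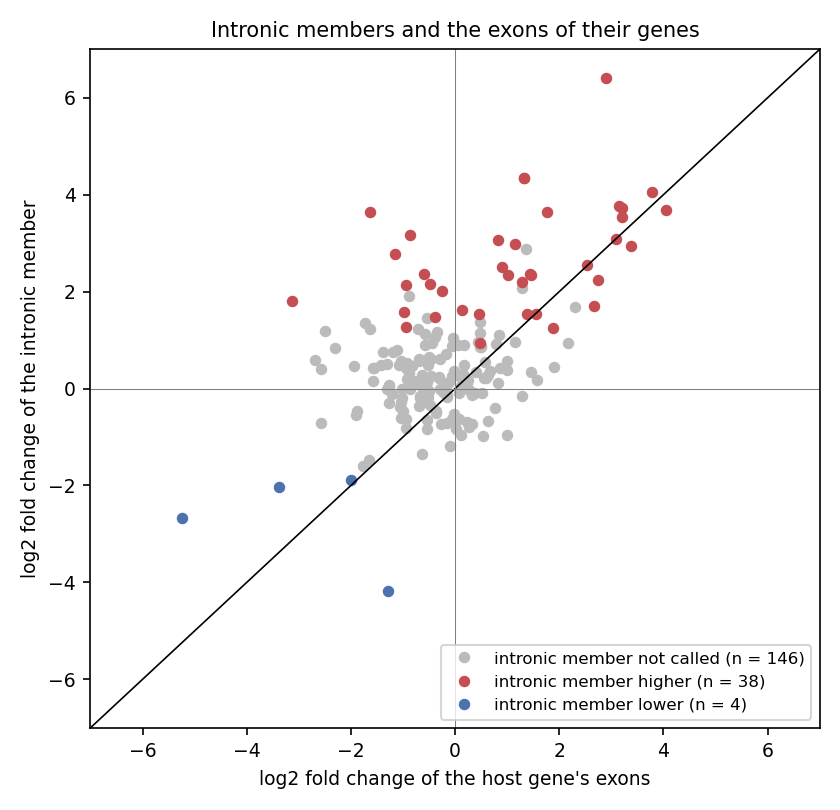
Log2 fold change of the intronic row (y axis) against that of its host gene's exons (x axis) for 188 pairs, sgUhrf1 against sgNT, coloured by the call of the intronic row; the diagonal marks equal change. Most points lie above the diagonal (132 of 188), and 6 of the 38 rows called higher lie left of 0 with exons called lower.

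The most counted row of all lay between genes and was lower in sgUhrf1 tumours. Listed as Gm13669, it covers chr2:75638702-75639158, 5320 bp upstream of Gm13655. It held 16136, 22767 and 18495 counts in sgNT and 3443, 4853 and 2332 in sgUhrf1 tumours. The groups were far apart, and the log2 fold change was −2.28 ± 0.23 (SE, edgeR adjusted p = 0.000242). The 3 rows named by exons whose log2 CPM was most like it over the 6 tumours, of 5744 ranked, lay over Fam91a1 (Pearson r 0.999), Apbb2 (0.998) and Ubqln4 (0.998). Their log2 fold changes were −1.53, −2.26 and −1.55. Each of these was itself lower in sgUhrf1 tumours, which the ranking made all but certain, since the row listed as Gm13669 differs mostly between groups.

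Of the other 5 most counted intergenic rows, 4 were not called. The row listed as Vmn1r235 (chr17:21476673-21483143), over the RefSeq gene Gm52290, held 1155, 1138 and 1023 counts against 803, 624 and 659. The groups did not overlap, but its log2 fold change of −0.47 ± 0.19 (SE) missed the threshold (edgeR adjusted p = 0.0792). By Vmp1, an autophagy gene, and 582 bp downstream of it, the row listed as Ptrh2 (chr11:86574811-86583283) held 629, 426 and 182 counts against 453, 973 and 205. At 7602 bp upstream of Selenoi, the row listed as Il6 (chr5:30218112-30224979) held 382, 271 and 180 against 279, 276 and 198, so the groups overlapped in both. At 3586 bp upstream of the kinetochore gene Dsn1, the row listed as Gm14277 (chr2:157010740-157011099) held 176, 311 and 228 counts against 306, 212 and 206, again with overlap. In RefSeq this row lies over the gene Soga1.

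The sixth, listed as Gm43071 (chr3:106474921-106476952), lies 1331 bp upstream of Gm38244. It held 8, 5 and 4 counts in sgNT and 477, 745 and 193 in sgUhrf1 tumours. Every sgUhrf1 tumour was far above every sgNT tumour, and the log2 fold change was 6.46 ± 0.48 (SE). Its sgNT counts alone would not have met the count minimum, so the row is given as a description, without a p.

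All 6 of the largest intergenic rises had 0 counts in every sgNT tumour. At 35474 bp from the nearest gene, the row listed as 1700010I02Rik (chr3:7990363-8019949) held 182, 288 and 177 counts in sgUhrf1 tumours, at least 244.5-fold higher. Beginning 2192 bp downstream of EU599041, the row listed as Zfp719 (chr7:43229034-43242659) held 156, 162 and 140 counts, at least 173.1-fold higher. These rows were close to equal among the 3 sgUhrf1 tumours. At 26010 bp downstream of Gm6569, the row listed as Gm32405 (chr15:73865918-73872762) held 158, 91 and 64 counts, at least 118.3-fold higher. At 2262 bp upstream of Rpl21-ps13, the row listed as Paox (chr7:139695712-139717137) held 114, 74 and 78, at least 100.5-fold higher. Both had their highest count in sgUhrf1 replicate 1. Among olfactory receptor genes, 4429 bp downstream of Olfr1028, lies the row listed as Olfr1039 (chr2:85958339-85966272), over the RefSeq gene Gm52520. It held 84, 38 and 39 counts, at least 60.9-fold higher. Over the RefSeq gene Gm52796, the row listed as Tmem130 (chr5:144672725-144698628) held 31, 60 and 48 counts, at least 52.5-fold higher. These 6 rows met the count minimum through sgUhrf1 tumours alone, so they are given as a description, without a p. Their listed names do not mean that Zfp719, Paox or Tmem130 changed.

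The largest intergenic fall had no counts in any sgUhrf1 tumour. At 27693 bp downstream of 4930425O10Rik, the row listed as Gm43162 (chr3:138682073-138683842) held 71, 44 and 28 counts in sgNT tumours and was at least 42-fold lower in sgUhrf1. At 40812 bp from Gm14461, the row listed as Gm14460 (chr2:78343042-78343680) held 296, 212 and 142 counts against 50, 49 and 39. Another, listed as Zmym6 (chr4:126971176-127018165), held 100, 129 and 155 counts against 42, 28 and 15. In these rows the groups were well apart, with log2 fold changes of −2.04 ± 0.30 and −2.03 ± 0.38 (SE) for the latter 2.

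Both remaining falls were less firm. One, listed as Erp27 (chr6:136884309-136899178), held 26, 30 and 16 counts against 2, 3 and 7 (log2 fold change −2.31 ± 0.62, SE, edgeR adjusted p = 0.0168). On its sgUhrf1 counts alone this row would not have met the count minimum. Its adjusted p was 0.0527 without sgNT replicate 1, 0.0729 without sgNT replicate 2, 0.0645 without sgUhrf1 replicate 1, 0.0594 without sgUhrf1 replicate 2 and 0.157 without both muscle-rich tumours. At 1 bp from Mir296, the row listed as Nelfcd (chr2:174257597-174269295) held 144, 59 and 55 counts against 38, 8 and 13 (−1.93 ± 0.61, adjusted p = 0.0328). It missed the threshold without sgNT replicate 1 (adjusted p = 0.13), sgUhrf1 replicate 2 (0.0696) or sgUhrf1 replicate 3 (0.084). At fold changes near 0, the row listed as Swt1 held 57, 30 and 10 counts against 46, 31 and 10, and the row listed as Gm12307 held 48, 25 and 29 against 34, 37 and 20.

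Intergenic rows called higher lay both near genes and far from them. Of 39 tested rows within 1000 bp of a gene body, 9 were higher and 1 lower. From 1000 to 5000 bp it was 18 and 1 of 52, from 5000 to 20000 bp 12 and 2 of 27, and beyond 20000 bp 6 and 2 of 17. Over all distances 33.3% of tested intergenic rows were higher and 4.44% lower, beside 20.2% and 19.7% of all 10503 rows tested. Split by side, rows downstream of the nearest gene had 4 higher of 23 tested within 1000 bp, 12 of 36 to 5000 bp, 10 of 21 to 20000 bp and 3 of 8 beyond. Upstream rows had 5 of 16, 6 of 16, 2 of 6 and 3 of 9, so no side led at every distance. For 29 intergenic rows the exons of the nearest gene could be set beside them, and 9 of these rows were called higher. The gene was higher as well in 4, not called in 4 and lower in 1.

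The 4 whose gene was higher too lay by Vil1, Gm48768, Pnpt1 and H2-Q10. By H2-Q10, a class I heavy chain gene, the row listed as H2-D1 held 69, 36 and 30 counts against 156, 147 and 201 (log2 fold change 2.13 ± 0.39, SE, exons 4.77 ± 0.91). By Pnpt1, which encodes an RNA-degrading enzyme of mitochondria, the row listed as BX000351.1 held 1, 0 and 0 counts against 34, 17 and 21, a ratio of 81.6 (exact 95% binomial interval 14.2 to 3269), while Pnpt1 exons were at 0.96 ± 0.24. In both rows the groups were apart. The 1 row whose gene was lower lay 299 bp downstream of Acvr1b, an activin receptor gene. It is listed as Gm49499 and held 6, 5 and 3 counts against 12, 12 and 21, at 1.90 ± 0.59 (SE) beside −1.58 ± 0.33 for the exons.

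Intronic rows called higher lay next to exons and deep inside introns. Of 153 tested intronic rows within 100 bp of an exon, 32 were higher and 4 lower. The counts were 67 and 5 of 313 from 100 to 1000 bp, 31 and 2 of 139 from 1000 to 10000 bp, and 6 and 1 of 16 beyond that. Over all distances 21.9% of tested intronic rows were higher and 1.93% lower. Over all 10503 rows tested it was 20.2% and 19.7%, so the share that was higher lay near the background. Rows called higher lay on all 19 autosomes. Their share of tested rows was highest on chromosome 1, at 18 of 39 (46.2%, beside 24.9% of all rows there), and lowest on chromosome 10, at 3 of 30 (10%, beside 13.6%). Chromosome 2 held 6 of the 18 rows called lower, and 11 of its 88 tested rows were higher (12.5%, beside 13.2% of all rows there).

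In 4 rows more than 80% of the counts came from 1 tumour. Besides the row listed as Gm10612, the row listed as Gm17421 (chr12:113333142-113335821), 2619 bp from the immunoglobulin constant gene Ighg1, held all its 87 counts in sgNT replicate 3. A row listed as Stx2 held 41 of its 44 counts in sgUhrf1 replicate 3, and the row listed as Zfp133-ps, partly inside the epithelial regulator gene Ovol2, held 32 of 39 in sgUhrf1 replicate 2. None of the latter 3 passed the filter for the test.

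The genes known for silencing DNA and for clearing stray transcripts were read beside these rows. Of 48 listed genes, 18 had a row over their exons and 17 were tested, of which 1 was higher and 5 lower, with a median log2 fold change of −0.46. Over all 10503 rows tested, 20.2% were higher and 19.7% lower, and a shift of this short list was not tested. Some of its rows cover few exon bases, such as 82 bp for Ehmt2. The 1 higher was Ddx58, which encodes the RNA sensor RIG-I, at 1.39 ± 0.27 (SE). Among the 5 lower were Ehmt2, a histone H3 lysine 9 methyltransferase gene (−0.66 ± 0.23), Cbx5, which encodes the heterochromatin protein HP1 alpha (−0.87 ± 0.22), Xrn2, a nuclear exonuclease gene of transcription termination (−2.63 ± 0.32), and Cstf2, a cleavage factor gene of 3′ end formation (−1.18 ± 0.30). Dnmt1 was at −0.46 ± 0.26 and was not called (edgeR adjusted p = 0.196). For Xrn2 the counts were 318, 506 and 391 in sgNT and 80, 68 and 28 in sgUhrf1 tumours, without overlap. Any link between these genes and the rows outside exons was not tested.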

How the data were processed

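Bulk RNA was measured in 6 tumours, 1 table each. The values are counts as deposited: read pairs assigned to a row, in whole numbers and without normalization. Per the submitters' processing notes, the authors used fastp, STAR and featureCounts on GRCm38, and per the file headers featureCounts 2.0.1 counted read pairs on exons, summed by gene name, without chimeric pairs, a strand setting or a minimum overlap. Per the file headers the annotation was GENCODE M26, whose coordinates belong to GRCm39, so rows were placed by their listed positions on GRCm38 with GENCODE M21. A row pools its intervals, and a pair touching an interval by a few bases counts, so some pairs may stem from a nearby exon.

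Rows and lists were chosen with earlier results of these data known. The whole table was fitted with edgeR 4.0.16 in R 4.3.3 (quasi-likelihood F test, TMM, filterByExpr by group with minimum count 10 and total 15, Benjamini-Hochberg over 10503 rows, threshold 0.05); standard errors come from the same fit. CPM are counts per 1000000 TMM-scaled counts. A count of 0 allows up to 3 counts, 0.445 to 0.66 CPM per tumour. Ratios against 1 to 3 counts carry exact 95% binomial intervals; these and the floors cover counting error only. Named rows are the 6 most counted of each class, the 6 largest changes in each direction among called rows whose mean log2 CPM is 0 or more and whose groups do not overlap, and the 2 nearest to no change among the 50 most counted; of the intergenic falls 6 qualified. Others named in pairs or windows were chosen after their values were seen, as were the alternatives without muscle-rich tumours, without the most counted row and with exon rows of like depth. The fit was tested on simulated data. Sequence of the rows themselves was not analysed here; promoter windows were read from RefSeq tables of GRCm38.p6. Alternatives used DESeq2 1.42.0 and limma 3.58.1. Results for some genes are not reported here.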

Additional observations from a re-analysis of the deposited data

How the results depend on the processing

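With 136 intronic rows called higher and 12 lower, and 45 and 6 intergenic ones, size factors by median of ratios, DESeq2 and limma-voom stayed within 1.5 times of each count. A minimum count of 30 left 53 and 7 intronic and 18 intergenic rows higher, with fewer rows tested. No filter gave 19 intronic lower, and 80 and 11 intergenic. Scaling on rows outside exons gave 35 intronic and 18 intergenic rows lower. Without the muscle-rich tumours 62 intronic and 28 intergenic rows were higher, while calls over all rows went from 2121 to 1094. Rows with at least 100 counts had 90 intronic and 26 intergenic higher; rows at least 1000 bp from exons had 37 and 3 intronic; rows wholly inside a gene had 84 and 6, all with fewer rows tested. Leaving out 1 tumour gave 96 to 158 intronic higher, 6 to 18 lower (6 without sgNT replicate 1, 18 without sgUhrf1 replicate 1), and 39 to 69 intergenic higher (69 without sgNT replicate 1); intergenic lower ran from 5 to 9. The replicate numbers did not pair the tumours: deviations of same-numbered tumours correlated at −0.08, −0.02 and 0.05. With a replicate block, 116 and 12 intronic and 39 and 7 intergenic rows were called. The causes of these shifts were not tested.

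The intronic share differed by 0.30 percentage points, by 0.108 without the 10 most counted rows and by 0.124 at 1000 bp or more from exons. The intergenic difference of −0.217 became 0.0413 without the 10 and 0.0459 without the 1 most counted row.

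Log2 fold changes that changed sign were all uncalled. Under scaling on rows outside exons, the rows listed as Vps28, Ptrh2, Il6, Gm14277 and Swt1 were at −0.545, −0.0364, −0.508, −0.436 and −0.511, from 0.01, 0.52, 0.04, 0.22 and 0.01. Without a filter Vps28, Il6 and Swt1 were at −0.0431, −0.0172 and −0.0394, and without the muscle-rich tumours at −0.387, −0.0883 and −0.593. Gm42502 was at 0.0104 with a minimum count of 30 and 0.0226 by limma-voom. Gm12307 was at 0.0107 by median of ratios, 0.0114 by DESeq2, 0.0234 with a minimum count of 30, 0.0615 by limma-voom and 0.0309 with the replicate block. Leaving out 1 tumour gave −0.61 to 1.53 for Obi1, −0.28 to 0.29 for Vps28, −0.35 to 0.28 for Gm42502, −0.0627 to 0.94 for Ptrh2, −0.15 to 0.31 for Il6, −0.50 to 0.68 for Swt1 and −0.25 to 0.28 for Gm12307. Depth limits rows near 30 counts to large folds.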

Other observations

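Rows over no exon on the sex chromosomes were outside the set above. On the X chromosome 36 such rows took 0.0115%, 0.00686% and 0.00795% of counts in sgNT and 0.0105%, 0.00894% and 0.00657% in sgUhrf1 tumours, which overlapped. Of the 17 tested, 1 was higher and 2 lower. The single such row on the Y chromosome (chrY:90796007-90827734) lies partly inside Gm47283. It held 222, 63 and 104 counts in sgNT and 27, 26 and 13 in sgUhrf1 tumours, without overlap, and was called lower by edgeR. Whether this part of Y has a copy on X was not examined, so the row is not read as specific to Y. In the same tumours 1 of 4 Y-linked genes, Eif2s3y, was higher in sgUhrf1 (log2 fold change 1.70 ± 0.45, SE), and Ddx3y was at 0.73 ± 0.40. The labels give the hosts as female.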
